A study of Danio rerio with 4 samples.

Results

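The insulin-like growth factor (IGF) system was followed in the zebrafish retina through 8 genes: the ligands igf1, igf2a and igf2b, the receptors igf1ra and igf1rb, and the binding proteins igfbp1a, igfbp2a and igfbp3. The genes were taken by name from the authors' table, out of 26355 genes with counts. They held 12 of the 46226 transcripts, and all 12 passed the filter on low counts. The choice was made with results of these data known, above all the low igf1 in the knockdown. Values of the 8 genes between knockdown and control are therefore a description and carry no test.

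Poly-A selected RNA came from retinas dissected at 48 hours post fertilization, 1 microgram of total RNA per condition. The control group of 2 biological replicates received the Id2aMM morpholino and the knockdown group of 2 received the id2a morpholino. Morpholinos are synthetic antisense molecules injected to lower the output of a gene, and id2a encodes a helix-loop-helix protein that binds E proteins and lacks a DNA-binding domain. The labels give no strain, no number of embryos per library, no wording behind the name Id2aMM and no dose of either morpholino.

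IGF ligands are small secreted proteins related to insulin. They bind a receptor tyrosine kinase, which signals through adaptor proteins to the PI3 kinase and AKT branch and to the RAS and MAPK branch. Secreted binding proteins hold the ligands outside the cell and can limit or prolong their action, and proteases release the ligands again. In fish embryos this system is known for growth and cell survival, including in the head and eye. Zebrafish carry duplicate genes for igf2 and for the receptor.

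Libraries held 42980929 to 54710062 counts of 1 mate. The targeted gene id2a was not lower in the knockdown: its more abundant transcript stood at 82.3 and 59.5 counts-per-million (CPM, TMM scale) in controls and at 84.8 and 70.6 CPM in the knockdown (log2 change 0.13 ± 0.24 SE, edgeR adjusted p = 0.768). The other transcript stood at 32.7 and 20.8 CPM against 41.6 and 36.8 CPM (0.55 ± 0.27 SE, edgeR adjusted p = 0.231). Whether it was targeted at the level of translation or of splicing is not labelled, and transcript levels need not fall in the former, so they do not check the labels. All 12 retina identity genes (such as rx1 and pax6a) were detected in every library, with summed levels of 730.1 to 1291 CPM. Among the 11 marker lists, 12 of 17 photoreceptor genes and 13 of 16 amacrine and ganglion cell genes fell. So did 12 of 16 epidermis and cornea genes, while 11 of 17 lens genes and 1 amacrine and ganglion cell gene rose. Over all genes tested, 5.70% fell and 2.37% rose. In the other 7 lists (retina identity, Muller glia, pigment epithelium, vessel and periocular mesenchyme, leukocyte, blood and liver), 0 or 1 gene passed in each direction.

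Counted by the rule used for all genes, an adjusted p under 0.05 in edgeR's quasi-likelihood test over all transcripts, igf1 was among the genes called lower and the other 7 were not called. This is a count and no test of igf1, whose low level was known when the genes were chosen. Over all genes tested, 8.06% were called (5.70% lower), and over all transcripts 7.03%. Nothing is read from the share of the 8 genes. By the transcript of each gene with the smallest p, the median log2 fold change of the 8 genes was -0.14, with 4 above 0 and 4 below. The median over all 20875 genes tested was -0.06. The split depends on igf1ra, at 0.03 in that transcript and -0.02 in the one with most counts. In 5 of the 12 transcripts the 2 groups did not overlap in CPM, which held for 60.7% of all transcripts tested. The authors' deposited table called 2 of the 12 transcripts, igf1 (log2 fold change -5.19) and the shorter igfbp3 transcript (-1.20), against 8.89% of its transcripts overall.

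**Figure D1:**
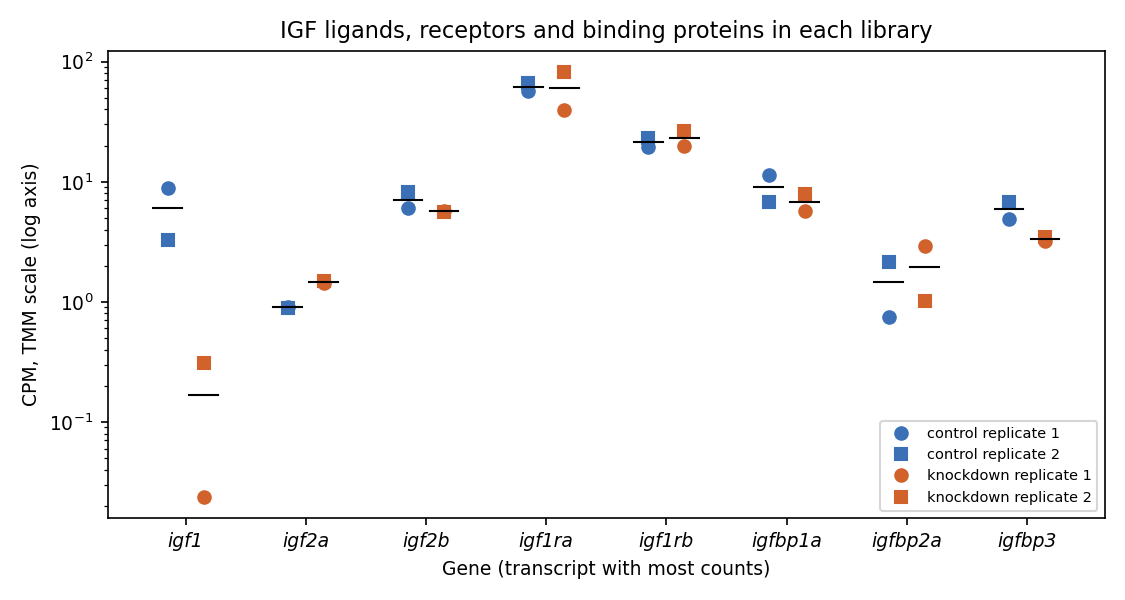
Levels of the 8 IGF genes in each library, as CPM on a log axis; each point is 1 library, bars are group means (n = 2), and the transcript with most counts stands for its gene. The igf1 points of the knockdown lie at 0.0239 and 0.308 CPM, below both control points, while the groups of igf1ra, igf1rb, igfbp1a and igfbp2a overlap.

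Levels of different genes were compared per length, as RPKM (reads of both mates per kilobase and library size, the authors' score divided by 1000), from the transcript of each gene with most counts. In controls the receptor igf1ra was highest at 9.29 ± 1.44 RPKM (SD, n = 2), and 78.1% of all transcripts in the authors' table were lower. The binding protein igfbp1a followed at 4.80 ± 1.66 RPKM, igf1 at 4.36 ± 2.70 RPKM and the receptor igf1rb at 3.28 ± 0.482 RPKM (n = 2 each). Neighbours among these last 3 genes overlapped between libraries, so their order was not resolved. Lower still were igf2b at 1.91 ± 0.513 RPKM and igfbp3 at 1.77 ± 0.442 RPKM, which also overlapped (n = 2 each). The lowest were igfbp2a at 0.809 ± 0.590 RPKM and igf2a at 0.422 ± 0.0184 RPKM (n = 2 each), and these overlapped as well. In the knockdown igf1 moved from rank 3 to the last rank, at 0.120 ± 0.146 RPKM (n = 2), below igf2a at 0.667 ± 0.0573 RPKM (n = 2) without overlap.

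Among the ligands, igf1 was the gene that differed most between the groups. Its only transcript (ENSDART00000004717 on chromosome 4 in the authors' table) held 439 counts in control replicate 1 and 182 in replicate 2. The knockdown libraries held 1 count in replicate 1 and 17 in replicate 2. As levels this was 8.88 and 3.29 CPM against 0.0239 and 0.308 CPM. Both knockdown libraries were far below both controls, and the libraries within each group also stood apart. No igf1 read was shared with another transcript.

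The log2 fold change of igf1 was -5.08 (SE 0.81). Over both knockdown libraries its counts were 32.0-fold fewer than in controls at equal depth (exact 95% conditional binomial interval 20.1 to 54.3, counting error only). Knockdown replicate 2 alone was 19.2-fold below the controls (interval 11.9 to 33.2). Knockdown replicate 1 held a single count, 249-fold fewer than the controls, with an interval of 44.4 to 9833. Counting error did not cover the spread within the control group, where replicate 1 was 2.70 times replicate 2 (interval 2.26 to 3.22). The log2 difference of 1.42 between the controls was larger than that of 95.4% of tested transcripts, and the difference of 2.45 between the knockdown libraries was larger than that of 98.7%.

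The size of the igf1 difference depended on which libraries were used. The log2 fold change was -4.19 without control replicate 1 and -4.28 without knockdown replicate 1. It was -5.62 without control replicate 2. Without knockdown replicate 2 the fitted value of -7.84 rests on the single remaining count and depends on the prior count.

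Markers of cell types differed in whether and how far they were low in the same libraries as igf1. Summed over their 16 genes, amacrine and ganglion cell markers stood at 1155 and 814 CPM in control replicates 1 and 2 and at 254 and 388 CPM in knockdown replicates 1 and 2, the same order of libraries as igf1. Photoreceptor markers, summed over 20 genes, went from 134 and 129 CPM to 7.20 and 10.1 CPM, with 3 and 4 of the genes at 0 counts in knockdown replicates 1 and 2. This sum had the igf1 order of libraries too, although its controls lay close together, unlike those of igf1. The sum of the 12 retina identity genes also had this order, at 1291 and 1065 CPM in controls and 730 and 912 CPM in knockdown replicates 1 and 2. How many of all genes had this order was not counted, so nothing is read from it. Epidermis and cornea markers went from 1972 and 2061 CPM to 642 and 273 CPM over 16 genes, with knockdown replicate 2 lowest, unlike igf1. Muller glia markers stood at 318 and 271 CPM in controls and at 267 and 245 CPM in the knockdown over 12 genes. Both knockdown sums were below both control sums, while the median log2 fold change of the list was 0.14. Pigment epithelium markers stood at 787 and 778 CPM against 699 and 976 CPM over 12 genes. The part of all these cell types in the igf1 result was not tested. In bulk retina, fewer cells of a type and less RNA per cell cannot be told apart. Liver, a main source of circulating IGF in vertebrates, was represented by 9 genes summing to 1.56 and 2.42 CPM in controls and to 7.85 and 4.57 CPM in the knockdown, with 2 of the 9 high enough to test. Control replicates 1 and 2 had 4 and 0 of these genes at 0 counts, and knockdown replicates 1 and 2 had 3 and 1.

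**Figure D2:**
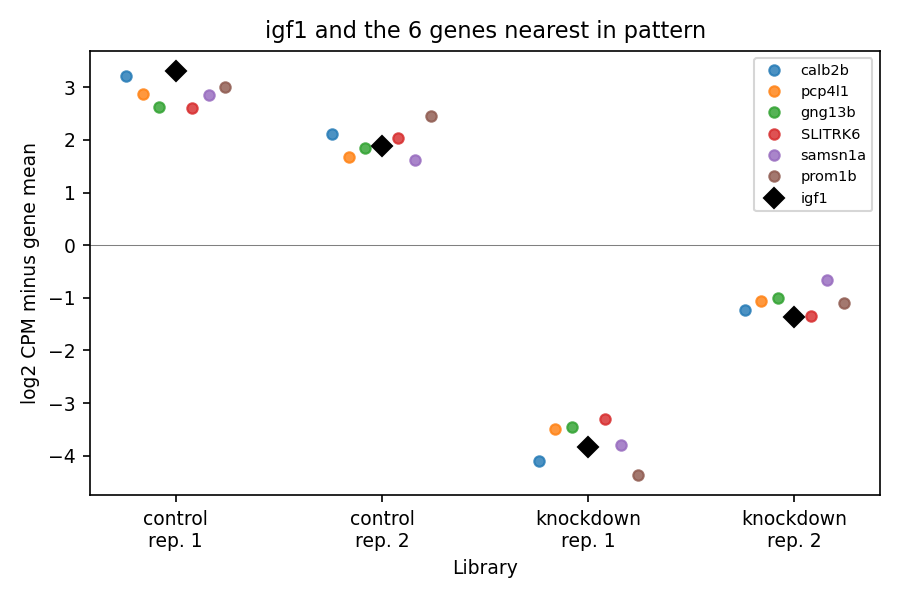
Level of igf1 (black diamonds) and of the 6 named genes nearest to it in pattern. Values are log2 CPM minus the mean of each gene (y axis) in the 4 libraries (x axis). Points of a library are spread sideways for legibility. In all 7 genes control replicate 1 is highest and knockdown replicate 1 lowest.

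The genes nearest to igf1 in pattern were found by the root mean square difference in centred log2 CPM over the 4 libraries, among 13006 genes averaging at least 2 CPM. The nearest was calb2b, which encodes a calcium-binding protein, at a difference of 0.20, followed by pcp4l1 at 0.33. Calb2b is also in the list of amacrine and ganglion cell markers, so it entered the sum given above. The G protein subunit gene gng13b, SLITRK6, samsn1a and the prominin gene prom1b each lay at 0.44, against a median of 2.80 over all genes compared. Calb2b stood at 89.9 and 41.8 CPM in controls and at 0.525 and 4.08 CPM in knockdown replicates 1 and 2. Prom1b stood at 30.3 and 20.8 CPM in controls and at 0.143 and 1.72 CPM in the knockdown. Over 4 libraries such likeness is only a description, and the igf1 value of knockdown replicate 1 rests on 1 count.

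The other ligand genes did not follow igf1. For igf2a, on chromosome 7, the longer transcript (ENSDART00000009642) held 45 and 49 counts in the controls, and 60 and 83 counts in the knockdown libraries. As levels this was 0.910 and 0.886 CPM against 1.43 and 1.50 CPM, so both knockdown libraries were above both controls. Its log2 fold change was 0.71 (SE 0.43) and stayed between 0.67 and 0.76 with any 1 library left out. All reads of the shorter igf2a transcript also hit the longer one. Those shared hits stood at 0.344 and 0.271 CPM in controls and 0.382 and 0.326 CPM in the knockdown, where the groups overlapped. The hits of the longer transcript alone were 28 and 34 counts in controls and 44 and 65 in the knockdown.

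The transcript of igf2b (ENSDART00000047569 on chromosome 25) stood at 6.05 and 8.14 CPM in control replicates 1 and 2 and at 5.75 and 5.64 CPM in knockdown replicates 1 and 2. Both knockdown libraries were just below control replicate 1 in CPM. In RPKM the groups overlapped, with control replicate 1 at 1.549 and knockdown replicate 2 at 1.551. The log2 fold change of igf2b was -0.32 (SE 0.27) and shrank to -0.08 without control replicate 2. Per length, igf2b exceeded igf2a in every library, by 3.79 and 5.23 times in controls and by 2.47 and 2.19 times in the knockdown.

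With igf1 low, the make-up of the ligand transcripts differed between the groups. Of the summed ligand RPKM, igf1 made up 76.2% in control replicate 1 and 47.5% in replicate 2. In the knockdown it made up 0.777% in replicate 1 and 8.99% in replicate 2. The share of igf2b was 31.5% ± 17.9 in controls and 66.6% ± 5.73 in the knockdown (SD, n = 2 each). That of igf2a was 4.97% and 8.43% in controls and 28.6% and 28.5% in the knockdown. The sum of all 3 ligands was 8.23 and 5.16 RPKM in controls and 2.19 and 2.48 RPKM in the knockdown. Without igf1, the sum of igf2a and igf2b was 1.96 and 2.71 RPKM in controls and 2.17 and 2.26 RPKM in the knockdown, which lay between the controls. The lower ligand sum in the knockdown was thus carried by igf1.

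**Figure D3:**
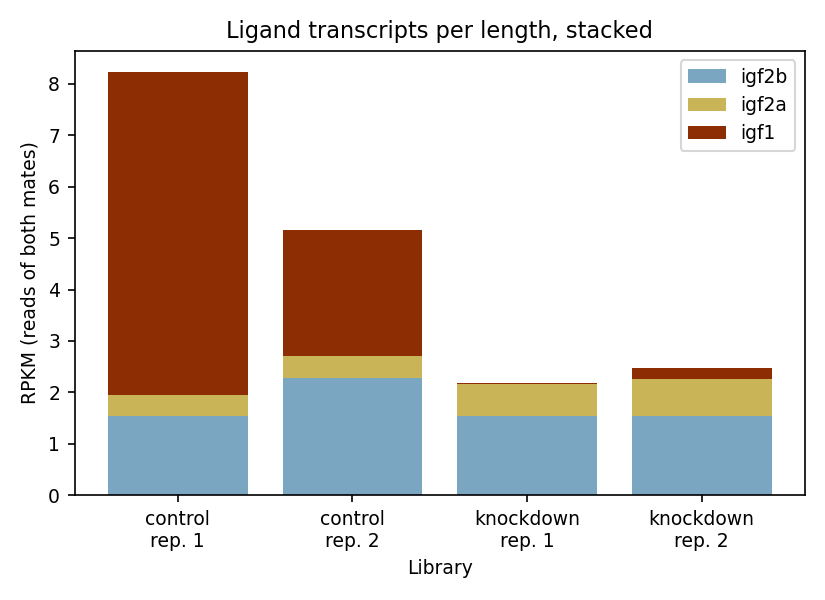
Ligand transcripts per length in each library (x axis), as RPKM stacked from igf2b, igf2a and igf1 (y axis). The igf1 segment is the largest of the 3 in both controls and nearly vanishes in the knockdown libraries, while the sum of igf2a and igf2b stays between 1.96 and 2.71 RPKM.

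Neither receptor gene differed between the groups by more than its SE, and both were highest in knockdown replicate 2. The longer igf1ra transcript (ENSDART00000010189 on chromosome 18) stood at 56.5 and 67.0 CPM in control replicates 1 and 2. Knockdown replicate 1 lay below both controls at 39.8 CPM and knockdown replicate 2 above both at 82.1 CPM. The log2 fold change of -0.02 (SE 0.33) was therefore an average over libraries on opposite sides of the controls, being 0.43 without knockdown replicate 1 and -0.63 without knockdown replicate 2. The shorter igf1ra transcript, whose reads nearly all hit the longer one too, spread in the same way, at 3.82 and 4.65 CPM in controls and 3.44 and 5.22 CPM in the knockdown.

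The igf1rb transcript (ENSDART00000046542 on chromosome 7) stood at 19.6 and 23.0 CPM in controls and at 19.7 and 26.3 CPM in knockdown replicates 1 and 2, so the groups overlapped. Its log2 fold change was 0.11 (SE 0.25), and -0.11 to 0.32 with 1 library left out. Per length, igf1ra exceeded igf1rb by 2.81 and 2.84 times in the controls, and by 2.00 and 3.04 times in the knockdown libraries. The receptors shared few reads: after reads were split over all transcripts they hit, igf1rb kept 99.8% to 99.9% of its counts. The insulin receptor genes insra and insrb, whose products are close relatives of the IGF receptor, stood at 4.25 and 8.28 RPKM on average in controls and at 4.24 and 9.33 RPKM in the knockdown. In insrb, as in igf1ra, knockdown replicate 1 at 6.73 RPKM and replicate 2 at 11.9 RPKM lay on opposite sides of the controls.

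Among the 3 binding protein members, igfbp3 was the lowest in the knockdown relative to control. Its longer transcript (ENSDART00000020400 on chromosome 20) stood at 4.93 and 6.84 CPM in control replicates 1 and 2. It stood at 3.20 CPM in knockdown replicate 1 and 3.44 CPM in replicate 2. Both knockdown libraries were below both controls, and the libraries of the knockdown lay close together. This gave a log2 fold change of -0.83 (SE 0.30), and -1.02 to -0.57 with 1 library left out. IGFBP-3 is the main carrier of IGF in mammalian blood.

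The shorter igfbp3 transcript (ENSDART00000144827) held 104 and 145 counts in control replicates 1 and 2, and 50 and 46 counts in the knockdown libraries. Its mean level was 2.36 ± 0.367 CPM for the controls against 1.01 ± 0.254 CPM for the knockdown (SD, n = 2 each), a log2 change of -1.23 (SE 0.41), and the groups did not overlap. Every read that hit it also hit the longer transcript, so its counts are a part of those above. The rest of the longer transcript held 140 and 233 counts in controls and 84 and 144 in knockdown replicates 1 and 2. This was 2.83 and 4.21 CPM against 2.00 and 2.61 CPM, with all knockdown values below the controls. On the log2 ratio of group means, the shared part was lower by -1.22 and the rest by -0.61. Shared hits made up 42.6% and 38.4% of the longer transcript's counts in controls and 37.3% and 24.2% in the knockdown, so knockdown replicate 2 stood apart and replicate 1 lay near the controls.

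**Figure D4:**
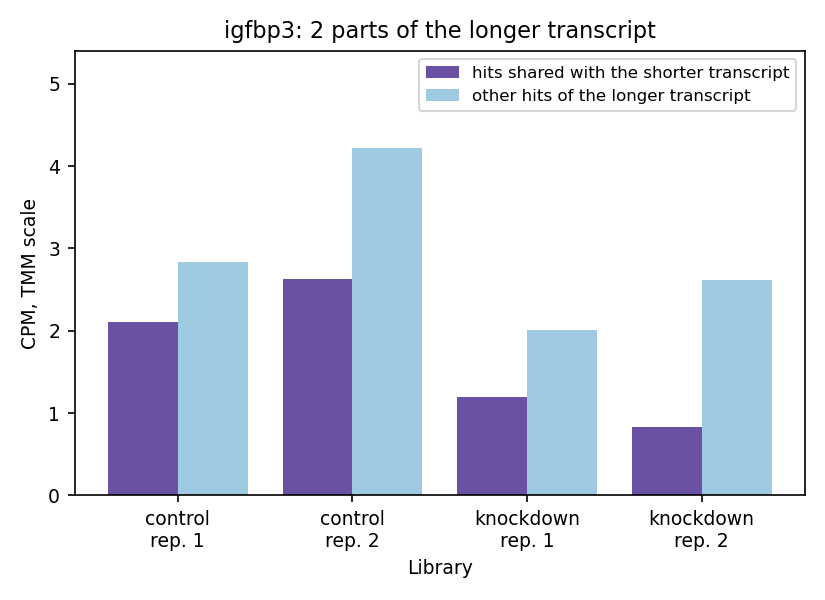
Level in CPM (y axis, TMM scale) of the longer igfbp3 transcript in each library (x axis), divided into hits shared with the shorter transcript and all other hits. Shared hits go from a mean of 2.36 CPM (control) to 1.01 CPM (knockdown), and the other hits from 2.83 and 4.21 CPM to 2.00 and 2.61 CPM.

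The gene igfbp1a lies next to igfbp3 on chromosome 20 (RefSeq, GRCz12tu), but its libraries were ordered otherwise. Its longer transcript (ENSDART00000026576) stood at 11.4 and 6.76 CPM in control replicates 1 and 2 and at 5.73 and 7.94 CPM in the knockdown, so the groups overlapped. The log2 fold change of -0.41 (SE 0.33) rested on control replicate 1, being 0.04 without it. The shorter igfbp1a transcript, at 4.71 and 3.13 CPM in controls and 3.17 and 3.86 CPM in the knockdown, shared all its reads with the longer one.

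The level of igfbp2a (ENSDART00000074327 on chromosome 6) varied more within the groups than between them. Control replicates 1 and 2 held 37 and 119 counts, and the knockdown libraries 122 and 56. As levels these were 0.748 and 2.15 CPM against 2.91 and 1.01 CPM. The log2 difference was 1.48 between the controls and 1.48 between the knockdown libraries, larger than in 95.9% and 94.7% of tested transcripts. The log2 fold change of 0.42 (SE 0.64) ranged from -0.49 to 1.38 with 1 library left out.

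By level per length, another gene of the family was far higher than these. In RPKM, igfbp1b, the duplicate of igfbp1a, stood at 110 and 90.9 RPKM in controls and 128 and 121 RPKM in the knockdown. It made up 86.6% to 89.5% of the RPKM summed over all binding protein genes listed. The 3 members igfbp1a, igfbp2a and igfbp3 made up 6.14% and 6.61% of that sum in controls and 3.83% and 4.19% in the knockdown, where both libraries were below both controls. Igfbp5b stood at 3.90 RPKM and igfbp7 at 3.69 RPKM on average in controls, against 3.17 and 7.07 RPKM in the knockdown. The genes igfbp5a, igfbp6a and igfbp6b were too low to test, with at most 13 counts in any library.

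The rest of the IGF pathway was read from 9 lists with 99 tested genes. Of these, 3 rose and 2 fell, and 94 did not pass the test. The share called was 5.05%, against 8.06% of all genes tested. By direction, 3.03% rose and 2.02% fell, against 2.37% and 5.70% of all genes. The median log2 fold change was 0.07, against -0.06 over all genes. No result on the pathway as a whole is read from these shares.

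Outside the cell, the gene that rose was pappa2, which encodes a protease that in mammals cleaves IGF binding proteins. The transcript with the smallest p stood at 1.52 and 1.70 CPM in controls and at 5.82 and 4.69 CPM in the knockdown (log2 change 1.71 ± 0.31 SE, edgeR adjusted p = 0.0270). Both knockdown libraries were above both controls, and 2 of 5 tested transcripts passed. The other 4 tested genes of the protease and stanniocalcin list did not pass. None of 4 other binding proteins, 4 other ligand and receptor genes and 4 IGF2 mRNA binding proteins passed, with adjusted p from 0.122 for igf2bp2a upward. Of the last group, igf2bp1 stood at 202 and 186 CPM in controls and at 279.6 and 244 CPM in the knockdown (log2 change 0.43 ± 0.21 SE, edgeR adjusted p = 0.228).

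Both other genes that rose belong to the growth hormone axis, which drives igf1 transcription in vertebrate liver. Of its 10 tested genes 2 rose and 8 did not pass, while 2.37% of all genes tested rose. The list was written with earlier results of these data known, so nothing is read from this count. The growth hormone receptor gene ghra stood at 1.80 and 2.04 CPM in controls and at 6.99 and 4.88 CPM in the knockdown (log2 change 1.62 ± 0.32 SE, edgeR adjusted p = 0.0311). The signal transducer gene stat5.1 stood at 1.29 and 2.13 CPM in controls and at 7.39 and 4.22 CPM in the knockdown (log2 change 1.75 ± 0.40 SE, edgeR adjusted p = 0.0430). These values are of the transcript with the smallest p. Of the tested transcripts, 2 of 3 passed for ghra and 1 of 2 for stat5.1. In pappa2, ghra and stat5.1 knockdown replicate 1 was the highest library. How many of all genes had that library highest was not counted. Lens markers, summed over 17 genes, had the same highest library, at 663 and 759 CPM in controls and 3302 and 1877 CPM in knockdown replicates 1 and 2. Summed leukocyte, blood and liver markers were highest in that library too, the leukocyte sum by little (107 CPM against 103 CPM in control replicate 1). The median log2 fold change of the leukocyte list was -0.80, with 0 genes called higher and 1 lower. The part of these cell types in these results was not tested.

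Inside the cell, the genes that fell were in the PI3 kinase, AKT and FOXO list, where 2 of 26 fell and 24 did not pass. Over all genes tested 5.70% fell, and nothing is read from the count of this list. The phosphatase gene ptenb, whose product opposes PI3 kinase, stood at 101 and 112 CPM in controls and at 39.1 and 59.3 CPM in the knockdown (log2 change -1.11 ± 0.26 SE, edgeR adjusted p = 0.0439). Both of its tested transcripts passed. The related gene ptena stood at 166 and 144 CPM in controls and at 96.1 and 105 CPM in the knockdown. It did not pass (transcript with the smallest p, log2 change -0.62 ± 0.21 SE, edgeR adjusted p = 0.105). The gene of the AKT-activating kinase pdpk1a stood at 2.37 and 2.44 CPM in controls and at 0.382 and 0.797 CPM in the knockdown (log2 change -2.01 ± 0.48 SE, edgeR adjusted p = 0.0476). The related gene pdpk1b was not lower, at 87.5 and 65.8 CPM in controls and 88.8 and 85.5 CPM in the knockdown. It did not pass (log2 change 0.18 ± 0.23 SE, edgeR adjusted p = 0.643). In ptenb and pdpk1a knockdown replicate 1 was lowest, as for the summed amacrine and ganglion cell, photoreceptor, retina identity and pigment epithelium markers. The pigment epithelium sum was highest in knockdown replicate 2, at 976 CPM, and the median log2 fold change of its list was 0.40. How many of all genes had knockdown replicate 1 lowest was not counted. None of 15 receptor adaptor genes, 16 genes of the TOR branch and 15 genes of the RAS and MAPK branch passed, with median log2 fold changes of -0.19, 0.28 and -0.13.

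The calls for pappa2, ghra, stat5.1, ptenb and pdpk1a were all lost without control replicate 1 and without control replicate 2, and all but that of pappa2 without knockdown replicate 1 and with reads summed per gene. Their signs were the same in each of these fits, and the log2 fold change of pdpk1a was -2.64 without knockdown replicate 2.

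**Figure D5:**
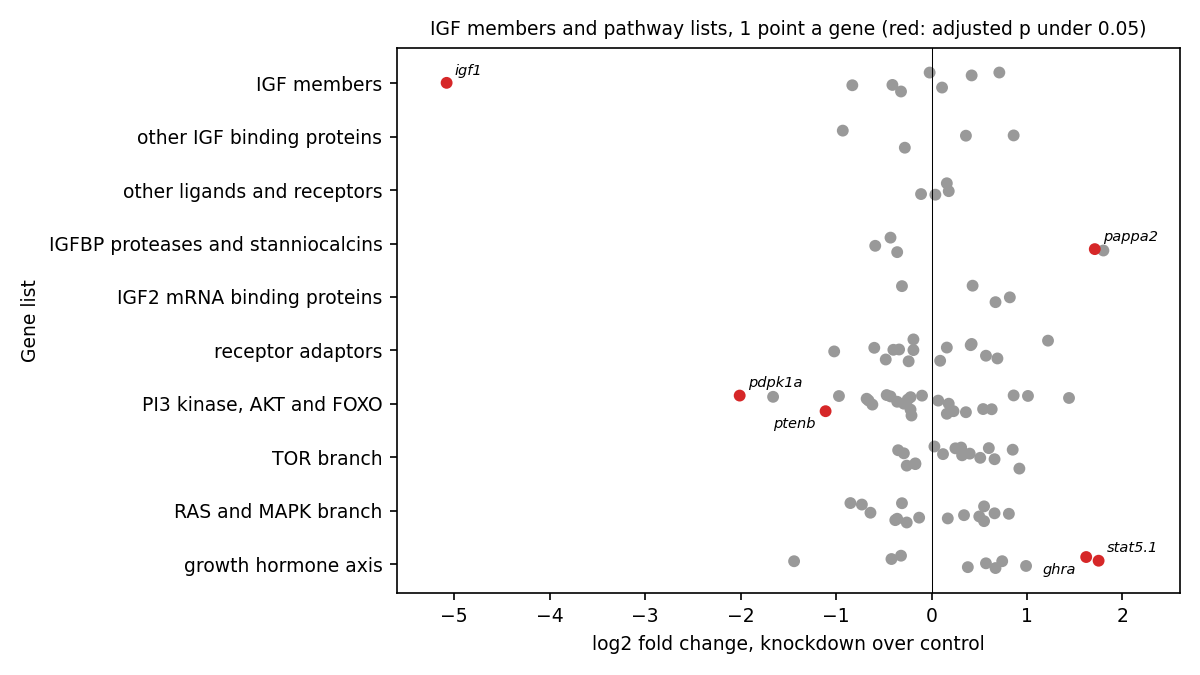
Log2 fold change of knockdown over control (x axis) for the 8 IGF genes and the tested genes of the 9 pathway lists (y axis), 1 point a gene, spread vertically for legibility; members are shown by the transcript with most counts and other genes by the transcript with the smallest p, and red marks an adjusted p under 0.05. Apart from igf1 at -5.08, all points lie between -2.01 and 1.80.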

How the data were processed

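File names of the deposited tables show bowtie and the zebrafish cDNA set of Ensembl release 66; for the version and build, the sources used here give nothing. The deposited tables hold whole-number counts per transcript and, per the file headers, estimated counts with each read split over its hits. The authors' table also holds a score, taken here as 1000 times an RPKM, log2 fold changes and adjusted p-values, from DESeq per the submitters' processing notes.

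The quasi-likelihood test of edgeR 4.0.16 (R 4.3.3, filterByExpr, TMM, no block) was run on counts of 1 mate over 37012 transcripts of 20875 genes, with Benjamini-Hochberg adjustment at 0.05. A gene was called where 1 or more of its transcripts passed, and took the sign of the one with the smallest p. The SE is the absolute log2 fold change over the square root of F. A read hit 1.89 to 2.01 transcripts on average and was counted for each of them, so transcripts that share reads are not independent. Depth was 50230438 and 53652256 counts in controls and 42980929 and 54710062 in the knockdown. P-values weigh the difference between the groups against the spread within the groups of these 4 libraries, estimated in part from other transcripts.

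Members, the 9 pathway lists and 11 marker lists were chosen with earlier results of these data known. Names were matched without case or a suffix such as "(1 of 2)", and 99 of 131 pathway symbols matched. A retina marker planned for its list is not reported here and was left out of the list's sum. Named pathway genes were those called with at least 1 CPM on average, at most 5 per list. A planned comparison of member proteins was not made. Alternatives included DESeq2 1.42.0 and voom in limma 3.58.1.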

Additional observations from a re-analysis of the deposited data

How the results depend on the processing

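Of 13 alternatives to the analysis above, 12 counted 1 IGF member as called, igf1, and with a library left out the count ranged from 0 (without control replicate 1) to 1; these are counts and no test of igf1, chosen for its low level. The 1683 genes called in all became 0 to 3056 with a library left out: 0 in edgeR without control replicate 1, where 8160 transcripts had an unadjusted p under 0.05, and 259 without control replicate 2. Without control replicate 1 the log2 fold changes of pappa2, ptenb and pdpk1a were 1.65, -1.16 and -2.01, against 1.71, -1.11 and -2.01 with all libraries. In these fits the lone library of a group is assumed to vary like the other group. The count was 3313 with DESeq2, 3176 with no filter and 828 with reads summed per gene. In that last setting transcript counts were added, so a read that hit several transcripts of a gene was counted for each of them. The 5 calls among pathway genes (3 higher, 2 lower) became 10 (6 and 4) with DESeq2 and with no filter, 8 (5 higher) with limma-voom, 9 (6 higher) with reads split over transcripts and 1 (1 and 0) with reads summed per gene. They ranged from 0 to 12 (0 to 6 higher, 0 to 6 lower) with a library left out. The replicate block gave 9 pathway calls (5 and 4) and 2324 genes in all. The numbers are not taken as pairs because the labels do not say that they mark a shared clutch, batch or day. Deviations of same-numbered libraries had a correlation of -0.02 over 37012 transcripts. With 2 libraries per group, this value cannot show whether they shared a batch. Apart from the tests on fewer libraries or fewer features, the cause of these changes was not tested. The log2 fold changes of igf1, pappa2, ghra, stat5.1, ptenb and pdpk1a, followed one by one, kept their sign in all 13. For igf2a, igf1, igf2b and igfbp3 the sign held in all alternatives, whereas those of igf1ra, igf1rb, igfbp1a and igfbp2a changed sign with a library left out, and that of igf1ra also with reads split over transcripts. The shorter igf2a transcript had no value with the stricter filter or with split reads. Depth limits igf1 in the knockdown (18 counts in all) and igf2a.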
